A study of Mus musculus with 2 samples.

Results

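Transcripts of 10 genes of the colony-stimulating factor system were followed through mouse bone marrow cultures, of 26124 genes listed in both count matrices. The genes were taken from a list: the receptor genes Csf1r, Csf2ra, Csf2rb, Csf2rb2, Csf3r, Flt3 and Kit, the ligand gene Csf1 and the feedback genes Cish and Socs2. All 10 were measured in both libraries. Lineage-depleted bone marrow cells of C57BL/6 mice aged 8 to 10 weeks were grown with GM-CSF at 20 ng/ml, and on day 3 either heme bound to albumin (300 µM, the heme library) or albumin alone (0 µM heme, the control library) was added. Each library was 1 pool of 5 cultures marked by hashtag antibodies and harvested on days 0, 3, 4, 5 and 7, so that the cultures of days 0 and 3 had met neither addition in either library. There was thus 1 library per group and 1 culture per library and day. Differences between libraries have no replicate check, no test was possible, and the 95% intervals given after each value cover counting error only.

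GM-CSF binds a specific alpha chain (Csf2ra) and signals through the common beta chain (Csf2rb), which IL-3 and IL-5 receptors share, while Csf2rb2 encodes a mouse beta chain that serves IL-3 alone. Signalling runs through the kinase JAK2 to STAT5, which switches on Cish and Socs2, whose products dampen the same signal. The receptors for M-CSF (Csf1r), FLT3 ligand (Flt3) and stem cell factor (Kit) are tyrosine kinases, those of macrophages and of progenitors respectively, and the G-CSF receptor (Csf3r) belongs to the neutrophil lineage.

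Cells were kept when hashtags assigned them to 1 culture, when 500 to 5000 genes were detected and when under 15% of unique molecular identifiers (UMIs, the counted transcripts) were mitochondrial, which left 10870 of 13961 barcodes in the control library and 10095 of 17378 in the heme library. A culture then held 1509 to 2856 cells and 14654253 to 36128668 UMIs, so that 1 UMI corresponded to 0.0277 to 0.0682 CPM (UMIs of a gene per 1000000 UMIs of all genes). The limit of 5000 genes bore unequally on the libraries: 1.92% to 8.34% of singlets lay above it in control cultures and 16.4% to 33.9% in heme-library cultures, and levels and calls of whole cultures were repeated without it, while the gates' splits and the shares of cells with both of a pair of UMIs were not. In sums over a whole culture, fewer cells that express a gene and less RNA of it per cell cannot be told apart, which the selections below address in part. The libraries shared 112 barcodes, 37 of them among the cells kept. Cells were selected in 4 ways by genes that are no members, as Camp-high cells (Camp, a granule peptide of immature neutrophils, at 0.3% of UMIs or more), Marco-positive cells (3 or more UMIs of this macrophage scavenger receptor), Ccr7-positive cells (3 or more UMIs of this chemokine receptor of mature dendritic cells) and ungated cells with none of these.

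The gates were checked against marker lists that do not hold the gate genes. In Camp-high cells of days 4 to 7 the 10 listed neutrophil genes summed to 252410.0 to 330009 CPM. The 10 dendritic cell genes summed to 9547 to 10407 CPM in Ccr7-positive cells against at most 502 CPM in ungated cells of days 4 to 7, and Flt3 and Socs2 are themselves on that list. In Marco-positive cells of the heme-exposed culture of day 7 the 10 macrophage genes summed to 8665 CPM, against 5299 CPM in its ungated cells. The heme oxygenase gene Hmox1 alone gave 6943 of the 8665 CPM, so that this sum rests mostly on 1 gene. On day 7 ungated heme-exposed cells carried more of both the macrophage list (5299 against 897 CPM) and the neutrophil list (31654 against 4107 CPM) than ungated control cells. Hmox1 alone gave 4312 of these 5299 CPM, so that most of the difference in the macrophage list was 1 gene. The neutrophil list in ungated cells was also higher in the heme library on day 4 (90384 against 55426 CPM) and day 5 (100332 against 48592 CPM). The dendritic cell list in ungated cells was lower in the heme library. It stood at 260 against 300 CPM on day 4, 242 against 460 CPM on day 5 and 99.6 against 502 CPM on day 7. The part of these lists in the ungated results below was not tested.

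The start of Cish held a pair of STAT motifs, and its sequence is shown because this gene is the textbook target of the signal that GM-CSF sends. Among 32851 promoter windows of RefSeq (GRCm38.p6, 250 bases before to 50 bases after a start), the letters TTCNNNGAA, searched on both strands, occurred at least once in 8.30% and at least 2 times in 0.457%. The Cish window held 2 (chr9:107296655-107296682, plus strand, motifs in capitals), which lie at the annotated start and 11 bases after it, inside a gene that GENCODE places at chr9:107296026-107302784, plus strand.
Cish: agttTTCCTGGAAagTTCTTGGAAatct
Of the other members whose windows were searched (Csf2ra, Csf2rb2, Csf3r, Flt3, Kit and Csf1), Csf2rb2 held 1 such match, 15 bases before its start. No window of Csf1r, Csf2rb or Socs2 was searched for any of the motifs here. The 150 bases before the start are shown on the gene's own strand (chr15:78305722-78305871, minus strand), with the match in capitals.
Csf2rb2: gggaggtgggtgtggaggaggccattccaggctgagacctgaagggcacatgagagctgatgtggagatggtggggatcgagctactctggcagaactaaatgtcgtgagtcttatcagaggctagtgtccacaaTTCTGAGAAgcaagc
The letters GAGGAA, the core of the binding site of the myeloid factor PU.1, were found on either strand in 28.3% of all windows. The windows of Csf2ra, Csf2rb2, Csf3r and Kit held them, and those of Flt3, Csf1 and Cish did not. The 28 bases around the match of Csf3r (chr4:126024562-126024589, plus strand, inside the first exon of a GENCODE transcript) and the 150 bases before the start of Csf2ra (chr19:61228419-61228568, minus strand) are shown, as they belong to the specific chains of the G-CSF and GM-CSF receptors, with GAGGAA in capitals, 2 copies end to end in Csf2ra.
Csf3r: ctccttcctgaGAGGAAggggctgtcta
Csf2ra: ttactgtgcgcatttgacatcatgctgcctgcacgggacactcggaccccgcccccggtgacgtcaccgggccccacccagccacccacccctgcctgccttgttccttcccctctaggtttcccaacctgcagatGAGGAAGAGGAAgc
The letters TTGCNNAA, part of the C/EBP site, occurred in 10.8% of windows and in none of the windows searched for members. A match is a run of letters and was not tested as a binding site.

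Before any exposure, the feedback genes and Csf2rb were higher on day 3 than on day 0, and the progenitor receptors and Csf1 were lower. Between days 0 and 3 of the control library, Cish went from 5.02 CPM (95% interval 4.04 to 6.17, 90 UMIs) to 141 CPM (95% interval 137 to 145, 4156 UMIs), a ratio of 28.0 (22.8 to 35.0). Socs2 changed by a ratio of 22.1 (16.3 to 30.8) and Csf2rb by 12.2 (11.2 to 13.4) over the same days. The receptors of progenitors moved the other way, Flt3 by a ratio of 0.0578 (0.0371 to 0.0866) and Kit by 0.197 (0.177 to 0.219). In the heme library, still unexposed, these ratios were 10.9 (9.62 to 12.3) for Cish, 8.35 (6.81 to 10.4) for Socs2, 5.58 (5.26 to 5.91) for Csf2rb, 0.0239 (0.0168 to 0.0329) for Flt3 and 0.195 (0.179 to 0.212) for Kit, in the same direction for each of these genes. Csf1 changed by a ratio of 0.745 (0.575 to 0.968) in the control and 0.507 (0.427 to 0.602) in the heme library.

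**Figure D1:**
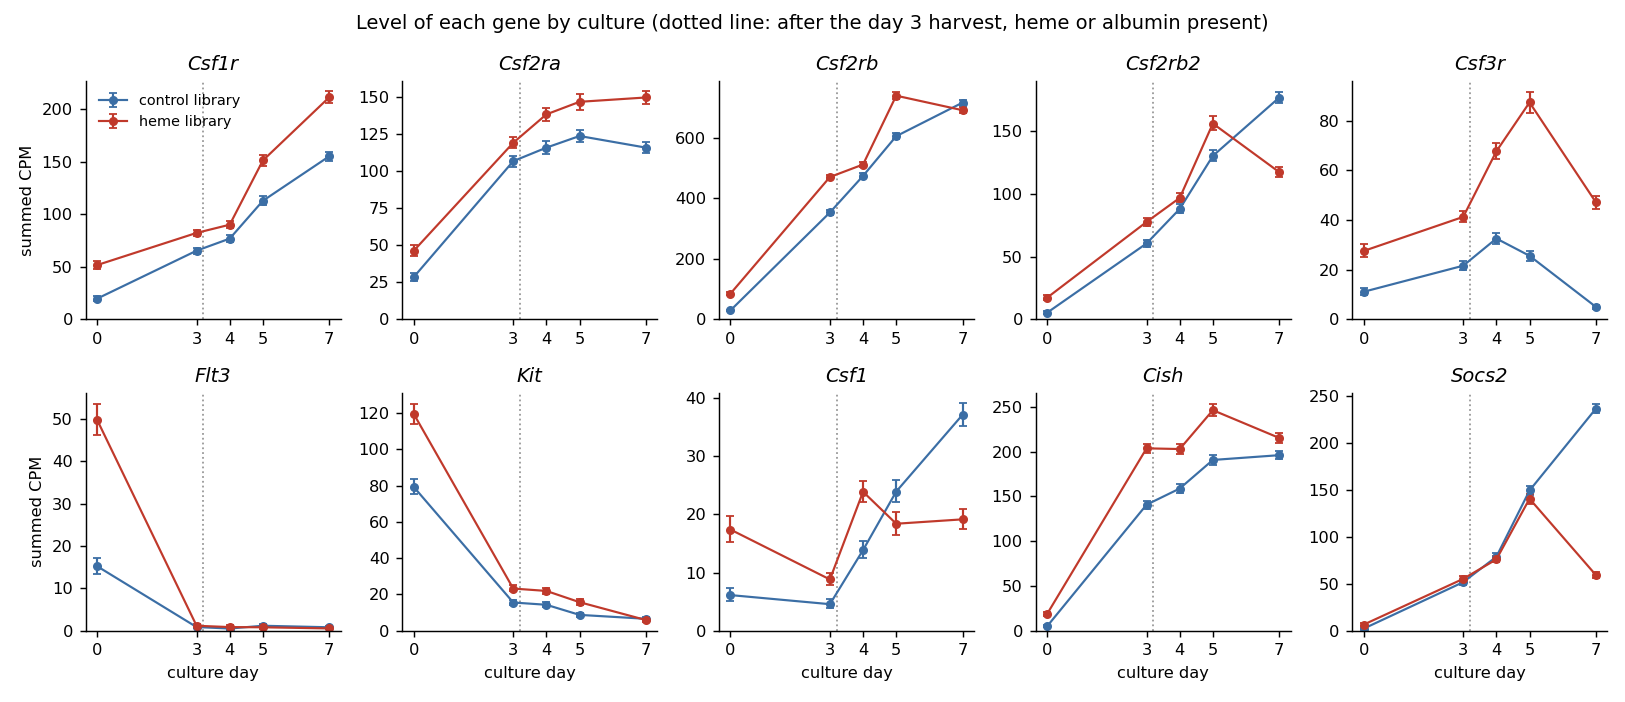
Summed CPM of each gene (vertical axis, its own scale per gene, from 0) against culture day (horizontal axis) in the control library (blue) and the heme library (red), with 95% Poisson intervals; cultures to the left of the dotted line were harvested before exposure. On day 7 Csf3r stood at 4.95 (control) and 47.1 CPM (heme-exposed), Socs2 at 236 and 59.3 CPM, and Csf1 at 37.1 and 19.2 CPM.

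The comparison of the libraries asked how heme altered the receptors and feedback genes of cultures that receive GM-CSF throughout. A gene was called past 2-fold when its ratio of summed CPM, heme over control, divided by the ratio of the median gene, was 2 or more or 0.5 or less. Genes with at least 50 UMIs in both cultures together entered. The median gene itself was higher in the heme library on every day, by a log2 ratio of 0.50, 0.30, 0.27, 0.24 and 0.29 on days 0, 3, 4, 5 and 7, so that a ratio of summed CPM a little above 1 lies at or below the median gene. On day 3, before exposure, 4.35% of 11537 genes were called and 0 of 10 members. On day 4, 0 of 9 members were called against 9.55% of all genes, and on day 5 Csf3r alone of 9 members was called, against 9.71%. On day 7, 3 of 9 were called (Csf3r higher, Csf1 and Socs2 lower in the heme-exposed culture) against 19.0% of 11873 genes. The median log2 ratio of the members entered, relative to the median gene, was 0.12, -0.01, 0.05 and -0.35 on days 3, 4, 5 and 7, where the median of all genes is 0.

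The unexposed day 0 cultures differed more than those of days 3 to 5. There 6 of 10 members were past 2-fold, all higher in the heme library, against 14.2% of all genes in either direction. Flt3 stood at 15.2 (control library) and 49.7 CPM (heme library), Csf2rb at 28.9 and 84.3, and Cish at 5.02 and 18.8. The listed erythroid genes moved with this difference (3267 against 1664 CPM), and their part in it was not tested. Without the limit of 5000 genes only Cish remained past 2-fold on day 0. Differences of this size thus occurred between these libraries with no exposure.

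**Figure D2:**
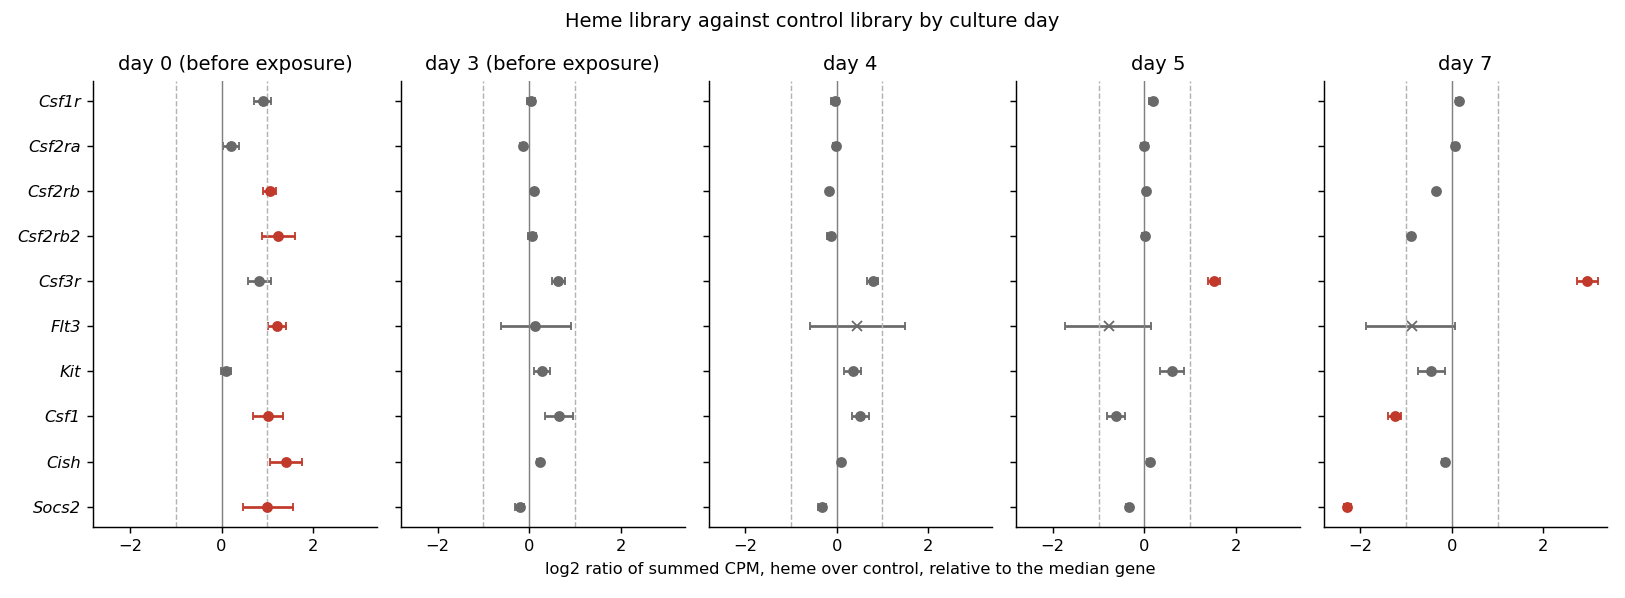
Log2 ratio of summed CPM, heme library over control library, relative to the median gene (horizontal axis), for each gene (vertical axis) on each culture day, with 95% counting intervals; red marks genes past 2-fold (dashed lines), grey the rest, and crosses genes with under 50 UMIs. On day 0, before exposure, 6 genes were past the line, on days 3 and 4 none, then Csf3r on day 5, and Csf3r, Csf1 and Socs2 on day 7.

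Csf1r, the M-CSF receptor gene that marks the macrophage lineage (chr18:61100598-61132149, plus strand), stood at 19.5, 65.2, 76.7, 113 and 155 CPM on days 0, 3, 4, 5 and 7 in the control library and at 51.5, 82.2, 90.0, 151 and 211 CPM in the heme library. In CPM the heme library was the higher on every day, the unexposed ones included. On days 3, 4, 5 and 7 the ratios were 1.26 (1.19 to 1.34), 1.17 (1.11 to 1.24), 1.34 (1.27 to 1.41) and 1.36 (1.31 to 1.41), which relative to the median gene are log2 ratios of 0.04, -0.04, 0.18 and 0.15. No exposed day passed 2-fold. With every cell thinned to 3000 UMIs, 33.8% (32.0 to 35.6) of control cells and 41.2% (39.0 to 43.5) of heme-exposed cells had a Csf1r UMI on day 7, against 1.04% and 1.61% of day 0 cells with 3 or more UMIs of the erythroid genes Klf1 and Gata1, which should lack it. Before thinning, the shares of day 7 were 62.0% and 73.0%.

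The cells that carried Csf1r differed between the libraries on day 7. Marco-positive cells made up 35.7% of heme-exposed cells and 0.420% of control cells, and they held 54.3% of the Csf1r UMIs of the heme-exposed culture with 44.1% of its UMIs of all genes. Csf1r stood at 260.2 (251 to 269.5) CPM in Marco-positive cells, 197 (189 to 205) in ungated heme-exposed cells and 193 (188 to 198) in ungated control cells. In ungated cells the ratio was thus 1.02 (0.974 to 1.07), below the median gene of those cells at a log2 ratio of -0.22. Camp-high and Ccr7-positive cells held little: 12.7 CPM in control and 40.4 CPM in heme-exposed Camp-high cells on day 4, and 16.7 CPM in control Ccr7-positive cells on day 7.

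In Camp-high cells Csf1r was the 1 of 9 members past 2-fold on day 4, against 5.89% of all genes, at a ratio of 3.18 (2.63 to 3.88). Before exposure, on day 3, its ratio in Camp-high cells was already 2.38 (1.68 to 3.43). On day 5 the ratio was 1.45 (1.02 to 2.04). The macrophage list moved with it, at 154 CPM in control and 887 CPM in heme-exposed Camp-high cells of day 4, and its part in the difference was not tested. Of the 887 CPM, 642 CPM were Hmox1. Day 7 gave no comparison of Camp-high cells, because the control culture held only 21 of them against 141 and at least 50 were required.

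Csf3r, the receptor gene for G-CSF (chr4:126024550-126044440, plus strand), was the member whose libraries parted most. Control cultures stood at 11.0, 21.5, 32.5, 25.5 and 4.95 CPM on days 0, 3, 4, 5 and 7, and heme-library cultures at 27.5, 41.2, 67.7, 87.4 and 47.1 CPM. In the control library the gene was highest on day 4 and lowest on day 7, while the heme-exposed culture of day 7 kept a level above that of its own day 3 (ratio of day 7 to day 3, 1.14, 1.06 to 1.23). In the control library that ratio was 0.230 (0.194 to 0.272). The ratio of heme to control was 1.91 (1.74 to 2.11) before exposure on day 3, then 2.08 (1.92 to 2.26), 3.42 (3.13 to 3.75) and 9.51 (8.13 to 11.2) on days 4, 5 and 7. Without the limit of 5000 genes the day 5 levels were 20.1 and 40.8 CPM and the gene was no longer past 2-fold that day, the heme-exposed cells above the limit carrying 12.8 CPM. On day 7 without the limit the levels were 4.43 and 34.1 CPM and the gene was still past 2-fold.

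Camp-high cells held Csf3r in both libraries. Their level was 54.7 (50.3 to 59.5) CPM in control and 81.5 (76.9 to 86.3) CPM in heme-exposed cells on day 4, a ratio of 1.49 (1.35 to 1.65), and the ratio in Camp-high cells of day 3, before exposure, was 1.60 (1.40 to 1.82). Outside that gate the libraries were farther apart. Ungated control cells stood at 19.0, 21.6 and 6.05 CPM on days 4, 5 and 7 and ungated heme-exposed cells at 56.3, 98.0 and 54.9 CPM. The ratios were 2.96 (2.57 to 3.41), 4.55 (4.08 to 5.07) and 9.09 (7.68 to 10.8), against 1.89 (1.64 to 2.18) on day 3. Marco-positive cells of day 7 carried 39.0 (35.5 to 42.7) CPM.

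A split of ungated cells by neutrophil transcripts, chosen after the values had been seen, bore on where this Csf3r lay. Cells with S100a8 and S100a9, abundant neutrophil genes, at 3% of UMIs or more numbered 84 (control) and 255 (heme-exposed) on day 7, at 53.3 and 86.0 CPM of Csf3r, a ratio of 1.61 (1.03 to 2.63). The 2138 and 857 cells below 3% carried 5.34 and 48.7 CPM, a ratio of 9.11 (7.57 to 11.0). On day 4 the ratio was 1.69 (1.45 to 1.98) at 3% or more and 3.44 (2.52 to 4.74) below 3%. On day 5 these ratios were 2.23 (1.98 to 2.53) and 4.77 (3.75 to 6.11). Ungated cells at 3% or more numbered 373 (control) and 602 (heme-exposed) on day 4, and 761 and 1138 on day 5. The difference was thus larger on each of these days in the cells with less S100a8 and S100a9. As a reference, Ccr7-positive cells of all days, which should lack the gene, stood at 0.652 (control library) and 6.41 CPM (heme library). All cells together stood at 18.6 and 54.2 CPM. The source of the UMIs in Ccr7-positive cells, such as free RNA of the droplets, was not tested. Those of the heme library had a median of 16151 UMIs per cell, against 10887.5 in ungated heme-exposed cells of day 7. The level in heme-exposed cells low in S100a8 and S100a9 lay above that of Ccr7-positive cells, and the part of free RNA in it was not tested.

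In ungated cells of days 5 and 7 and Marco-positive cells of day 7, cells with a Csf1r UMI had a Csf3r UMI about as often as all cells of the same gate and library. All cells include those with a Csf1r UMI, which draws the compared shares together. After thinning to 3000 UMIs, 67 of 408 ungated heme-exposed cells with a Csf1r UMI on day 7 also had a Csf3r UMI (16.4%, 95% binomial interval 12.96 to 20.4), against 15.1% of all ungated cells there. In ungated control cells the numbers were 20 of 875 (2.29%, 1.40 to 3.51), against 2.18% of all. Marco-positive cells gave 40 of 367 (10.9%, 7.90 to 14.5), against 10.7% of all. On day 5 the share in ungated heme-exposed cells was 31.7% (27.7 to 35.9), against 28.9% of all, and that in ungated control cells 9.94% (7.42 to 12.96), against 8.78%. On these days the larger shares of the heme library thus went with its higher Csf3r share in all cells. Earlier days were less even. In ungated heme-library cells the share was 6.08% (3.85 to 9.06) against 9.07% of all on day 3, and 14.5% (10.6 to 19.1) against 19.7% on day 4. Control Camp-high cells of day 4 went the other way, at 11 of 34 cells (32.4%, 17.4 to 50.5) against 14.6%. A pair of cells of the same culture in 1 droplet cannot be told apart from 1 cell by hashtags, and their part in these shares was not tested.

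Neither chain of the GM-CSF receptor was past 2-fold between the libraries after exposure. Csf2ra, its alpha chain (chr19:61223957-61228429, minus strand), stood at 28.4, 107, 116, 123 and 116 CPM in the control library and 46.1, 119, 138, 147 and 149 CPM in the heme library on days 0, 3, 4, 5 and 7, with ratios of 1.19 (1.14 to 1.25), 1.19 (1.13 to 1.25) and 1.29 (1.24 to 1.35) on the exposed days. Csf2rb, the common beta chain (chr15:78325752-78353847, plus strand), stood at 28.9, 353, 474, 605 and 716 CPM and 84.3, 470.3, 512, 739 and 691 CPM, with ratios of 1.08 (1.05 to 1.11), 1.22 (1.19 to 1.25) and 0.965 (0.947 to 0.983). With no upper limit on genes Csf2rb stood at 539 and 791 CPM on day 4, which turned its log2 ratio relative to the median gene from -0.16 to 0.21. On day 5 it then stood at 682 and 1240.4 CPM, a log2 ratio of 0.62, so that the libraries were farther apart on both days without the limit, though under 2-fold. On day 7, 79.6% (78.0 to 81.1) of control cells and 75.0% (73.0 to 76.9) of heme-exposed cells had a Csf2rb UMI after thinning to 3000 UMIs, against 2.69% and 7.66% of the erythroid-type cells of day 0.

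Csf2rb2, the beta chain for IL-3 (chr15:78282507-78305721, minus strand), left the course of Csf2rb on day 7. It stood at 5.13, 60.4, 88.0, 130.4 and 177 CPM in the control library and 17.1, 77.6, 96.8, 156 and 117 CPM in the heme library, higher in CPM in the heme library through day 5 and lower on day 7. Relative to the median gene the log2 ratio was -0.13, 0.02 and -0.89 on days 4, 5 and 7, at a day 7 ratio of 0.664 (0.636 to 0.693) that did not pass 2-fold. The same log2 ratios with no upper limit on genes were 0.14, 0.53 and -0.56. The number of Csf2rb UMIs per Csf2rb2 UMI was 4.64 (4.47 to 4.82) in the control and 4.73 (4.55 to 4.92) in the heme-exposed culture on day 5, and 4.05 (3.94 to 4.16) and 5.89 (5.67 to 6.11) on day 7. The 2 genes lie side by side and are close copies, so reads could be shared: of the windows of 91 bases, the read length, in the last 600 bases of the longest coding transcript of either, 0 of 510 occurred in the other gene, while 8.05% of such windows over the whole Csf2rb transcript did. Reads away from the 3′ ends of both genes are therefore uncertain.

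The balance of the chains followed the cell type. Ccr7-positive cells had the fewest Csf2rb UMIs per Csf2rb2 UMI, 2.98 (2.70 to 3.31) in the control and 2.85 (2.58 to 3.15) in the heme library on day 5 and 3.24 (3.05 to 3.44) in the control on day 7. Camp-high cells of day 4 had 6.44 (5.67 to 7.33) and 5.41 (4.99 to 5.88), and Marco-positive cells 6.41 (6.03 to 6.83). Intervals of Ccr7-positive cells lay below those of every other gate with a value. Against Csf2ra the order was different: Camp-high cells of day 4 had 1.60 (1.48 to 1.72) and 1.90 (1.80 to 2.01) Csf2rb UMIs per Csf2ra UMI, ungated cells 5.53 (5.26 to 5.81) and 5.43 (5.15 to 5.71), and Ccr7-positive cells of day 5 6.89 (5.97 to 7.98) and 10.1 (8.56 to 12.0). The alpha chain was the more even of the subunits, at 63.5 to 157 CPM across all gates of days 3 to 7, where Csf2rb ranged from 129.7 to 967 CPM.

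In Ccr7-positive cells of day 5 both beta chains and Cish were higher in the heme library by more than the median gene of those cells (log2 0.24), and Socs2 was higher in CPM. Csf2rb stood at 627 and 967 CPM in the control and heme-exposed culture (ratio 1.54, 1.43 to 1.66), Csf2rb2 at 210.2 and 339.7 CPM (ratio 1.62, 1.43 to 1.83), Cish at 235 and 384 CPM (ratio 1.63, 1.45 to 1.84) and Socs2 at 645 and 840.1 CPM (ratio 1.30, 1.21 to 1.40), among 149 and 92 cells. None of these passed 2-fold, and with every Singlet barcode the log2 ratio of Socs2 relative to the median gene turned from 0.14 to -0.016. The 1 of 6 members that did, against 7.86% of all genes, was Csf1r at 10.5 and 29.1 CPM (ratio 2.77, 1.67 to 4.71), and the macrophage list moved with it (87.7 and 623 CPM), whose part was not tested. Of the 623 CPM, 477 CPM were Hmox1. On day 7 only 40 heme-exposed cells were Ccr7-positive against 600 control cells, too few for a comparison.

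Flt3 and Kit, the receptors of early progenitors, were highest on day 0. Flt3 (chr5:147330741-147400489, minus strand) stood at 15.2 and 49.7 CPM on day 0 and at 0.537 to 1.19 CPM in every later culture of both libraries. Of the 30 Flt3 UMIs of the control culture of day 7, 76.7% lay in Ccr7-positive cells, which held 21.3% of its UMIs of all genes. From day 4 on Flt3 had too few UMIs to compare the libraries. Without the limit of 5000 genes it entered on day 7, at 0.815 and 0.367 CPM, and was past 2-fold lower in the heme-exposed culture.

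Kit (chr5:75574916-75656722, plus strand) stood at 79.3, 15.6, 14.3, 8.77 and 6.62 CPM in the control library on days 0, 3, 4, 5 and 7 and at 119, 23.3, 22.0, 15.8 and 5.93 CPM in the heme library. The ratio before exposure was 1.51 (1.40 to 1.62) on day 0 and 1.49 (1.33 to 1.68) on day 3. After exposure it was 1.53 (1.34 to 1.75), 1.80 (1.51 to 2.14) and 0.896 (0.729 to 1.10) on days 4, 5 and 7, and none passed 2-fold. Relative to the median gene the log2 ratios of those days were 0.35, 0.60 and -0.45, and without the limit of 5000 genes 0.05, 0.12 and -0.86. After day 0 its level was highest in Camp-high cells of the heme library, at 34.7, 28.5, 35.8 and 24.9 CPM on days 3, 4, 5 and 7, against 15.8, 15.4, 14.6 and 7.20 CPM in ungated cells. Ungated cells of day 7 stood at 4.45 (3.70 to 5.30) CPM (control) and 7.20 (5.82 to 8.82) CPM (heme-exposed), so that within them Kit was the higher in the heme-exposed culture, unlike in the culture as a whole. In Marco-positive cells of day 7, Kit was the 1 of 9 members past 2-fold from ungated cells, at 1.93 CPM and a ratio of 0.268 (0.162 to 0.427), where 5.25% of all genes were called. Cells with 3 or more UMIs of the mast cell and basophil genes Ms4a2, Mcpt8 and Prss34, which can carry KIT, held 0% to 1.25% of Kit UMIs in cultures of days 3 to 7.

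Csf1, which encodes M-CSF, the ligand of Csf1r (chr3:107741048-107760469, minus strand), was higher in each later control culture from day 3 on, and in the heme library stood highest on day 4 of those days. It stood at 6.14, 4.57, 13.9, 23.9 and 37.1 CPM in the control library on days 0, 3, 4, 5 and 7 and at 17.4, 8.82, 23.9, 18.4 and 19.2 CPM in the heme library. The heme library was the higher through day 4, at ratios of 1.93 (1.57 to 2.38) and 1.72 (1.51 to 1.96) on days 3 and 4, and the lower afterwards, at 0.769 (0.673 to 0.877) and 0.516 (0.465 to 0.572) on days 5 and 7. Without the limit of 5000 genes the day 7 levels were 35.9 and 24.7 CPM, a log2 ratio of -0.85 relative to the median gene, so that Csf1 was no longer past 2-fold. On day 5 they were 23.5 and 28.1 CPM, a log2 ratio of 0.01. In Camp-high cells Csf1 was the 1 of 9 members past 2-fold on day 5, against 6.52% of all genes, at 12.98 (9.63 to 17.1) CPM (control) and 6.08 (2.91 to 11.2) CPM (heme-exposed). On day 4 the order there was the opposite, at 3.84 (2.73 to 5.25) and 9.58 (8.05 to 11.3) CPM.

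Csf1 lay mostly in ungated cells, which held 96.3% of its UMIs in the control culture and 60.7% in the heme-exposed culture of day 7, at 45.9 (43.5 to 48.5) and 24.1 (21.5 to 26.9) CPM. Marco-positive cells stood at 16.1 (13.9 to 18.6) CPM and control Ccr7-positive cells at 5.47 (3.94 to 7.39) CPM. Split after the values had been seen by H2-Ab1, an MHC class II gene, ungated control cells of day 7 with under 3 UMIs carried 109 CPM of Csf1 and those with 3 or more 15.0 CPM. In the heme-exposed culture the order was the opposite, 20.6 and 34.8 CPM. The ratio of heme to control was therefore 0.190 (0.163 to 0.221) among cells low in H2-Ab1 and 2.32 (1.85 to 2.91) among cells with H2-Ab1, 1228 control and 181 heme-exposed cells.

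Cish, the STAT5 feedback gene whose start is shown above, stood at 5.02, 141, 159, 191 and 196 CPM in the control library on days 0, 3, 4, 5 and 7 and at 18.8, 204, 203, 246 and 215 CPM in the heme library. From day 3 on it varied less than Socs2 in either library. The ratio of heme to control was 1.45 (1.39 to 1.50) before exposure on day 3 and 1.28 (1.23 to 1.33), 1.29 (1.24 to 1.34) and 1.10 (1.06 to 1.14) on the exposed days. Relative to the median gene no exposed day passed 2-fold, the log2 ratios being 0.08, 0.13 and -0.16. Every gate carried it, from 86.6 CPM in control Camp-high cells of day 3 to 384 CPM in heme-exposed Ccr7-positive cells of day 5.

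Socs2, the other feedback gene (chr10:95385362-95417180, minus strand), parted from Cish on day 7. Control cultures stood at 2.34, 51.8, 78.8, 149 and 236 CPM on days 0, 3, 4, 5 and 7 and heme-library cultures at 6.62, 55.3, 76.0, 141 and 59.3 CPM. Through day 5 the libraries lay close together in CPM, with ratios of 1.07 (0.997 to 1.14), 0.965 (0.907 to 1.03) and 0.941 (0.896 to 0.989) on days 3, 4 and 5. Relative to the median gene Socs2 was lower in the heme library on those days, at log2 ratios of -0.20, -0.32 and -0.33, the first of them before exposure. On day 7 the ratio was 0.251 (0.238 to 0.265), and it was also past 2-fold without the limit of 5000 genes. After thinning to 3000 UMIs, 40.9% (39.0 to 42.8) of control cells and 12.4% (11.0 to 14.0) of heme-exposed cells had a Socs2 UMI on day 7, against 0.414% and 1.21% of the erythroid-type cells of day 0.

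The number of Ccr7-positive cells moved with this difference. They made up 21.0% of the control and 1.98% of the heme-exposed culture on day 7 and held 50.6% and 35.5% of the Socs2 UMIs, the latter in only 40 cells. Their level was 563 (546 to 579.6) CPM in the control culture of day 7. The difference was also present in ungated cells, which can include cells with under 3 Ccr7 UMIs. Ungated control cells stood at 95.4, 113 and 149 CPM on days 4, 5 and 7 and ungated heme-exposed cells at 68.6, 85.7 and 44.0 CPM. The ratios were 0.718 (0.659 to 0.783), 0.755 (0.706 to 0.809) and 0.295 (0.270 to 0.322). The dendritic cell list, which holds Socs2, also differed in ungated cells of day 7 (502 CPM in control, 99.6 CPM in heme-exposed cells). Its part in the ungated difference was not tested. Within the ungated cells of day 7 the ratio was 0.402 (0.350 to 0.459) among those with 3 or more H2-Ab1 UMIs and 0.451 (0.395 to 0.514) among the rest. In Marco-positive cells Socs2 stood at 35.4 (32.1 to 38.9) CPM, and in Camp-high cells of the same culture at 27.1 (19.2 to 37.2) CPM.

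**Figure D3:**
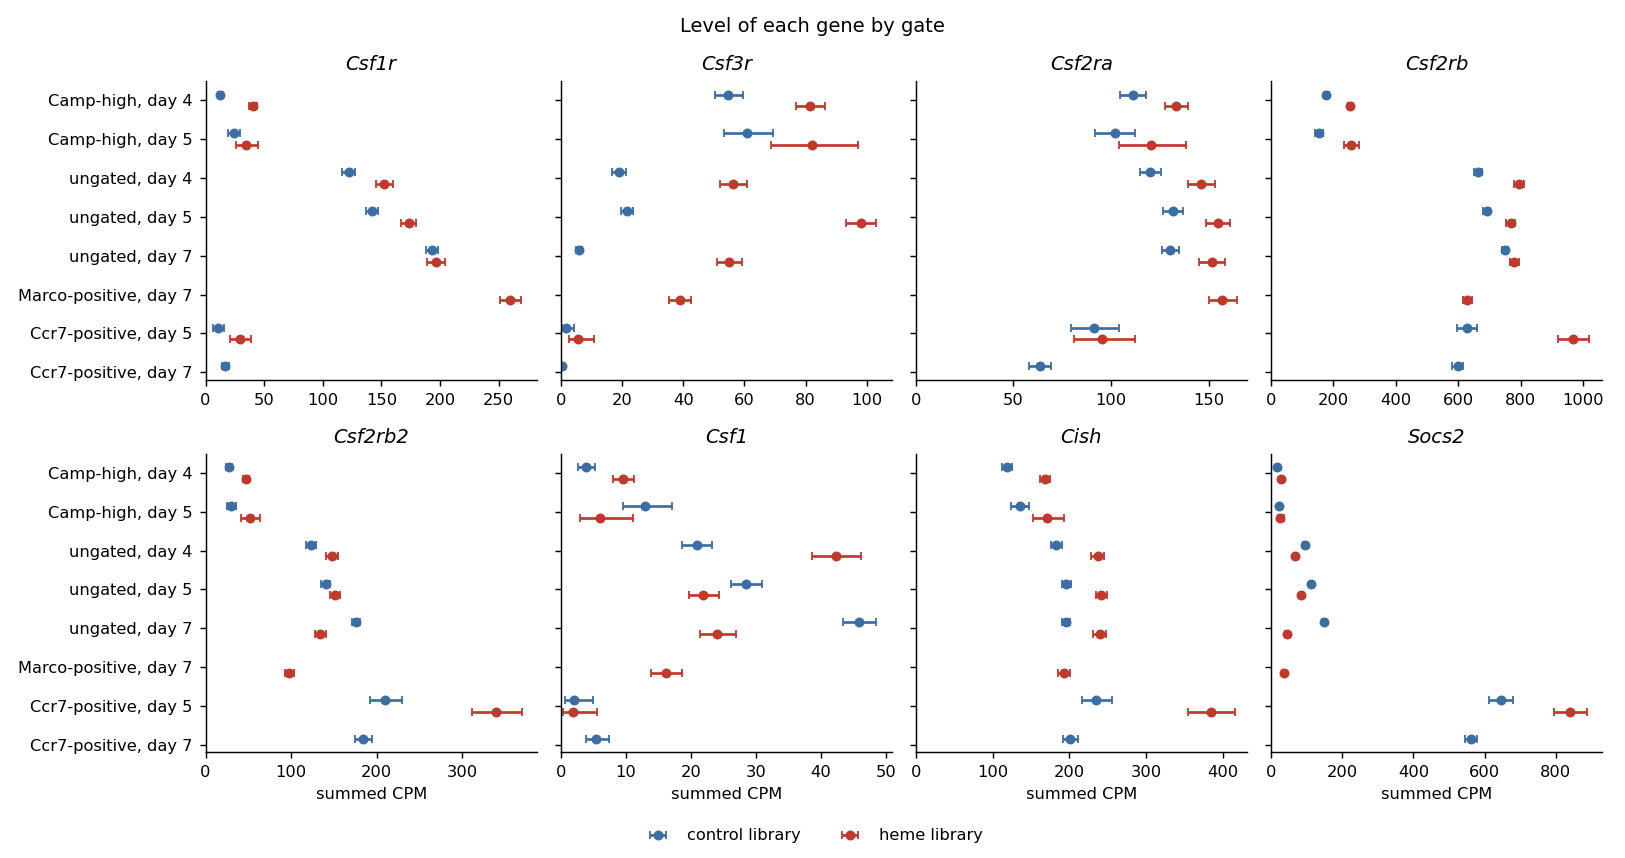
Summed CPM (horizontal axis, from 0, its own scale per gene) of 8 genes by gate and day (vertical axis) in the control library (blue) and the heme library (red), with 95% Poisson intervals; combinations with under 50 cells have no point. Csf1r was highest in Marco-positive cells (260.2 CPM), Socs2 and Csf2rb2 in Ccr7-positive cells, and Csf3r in ungated heme-exposed cells of day 5 (98.0 CPM) and in Camp-high cells.

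Across 5 bins of Camp share, Csf1r and Csf2rb were lower in each bin of higher Camp share in both libraries. From cells with under 0.03% Camp to cells with 1% or more, days 3 to 7 together, Csf1r went from 135 to 9.54 CPM (control library) and from 191 to 22.4 CPM (heme library), and Csf2rb from 674 to 151 and from 798 to 223 CPM. Kit stood at 7.55, 21.9, 21.3, 19.2 and 22.4 CPM over the bins of the control library, a step above the bin under 0.03% with overlapping intervals beyond it, and at 9.15, 25.0, 24.7, 28.2 and 33.5 CPM over those of the heme library. Csf3r was lowest in the bin under 0.03% (9.38 CPM in control and 46.9 CPM in heme-library cells), against 48.4 and 71.3 CPM in the bin of 1% or more. It was highest in between, at 59.0 CPM in control cells with 0.1% to 0.3% Camp and 90.9 CPM in heme-library cells with 0.03% to 0.1%. The bins pool unexposed and exposed days, and Camp-high cells are few on day 7, so that Camp share and day cannot be told apart in them. Csf2ra went from 117 to 108 CPM and from 143 to 119.8 CPM.

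**Figure D4:**
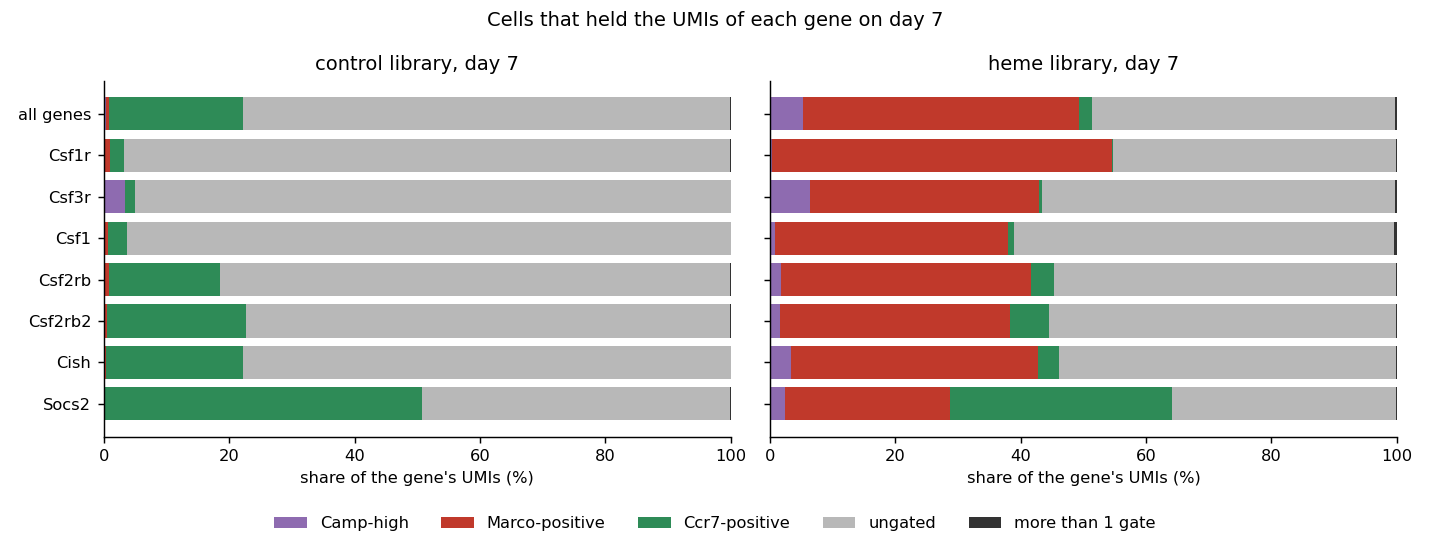
Share of the UMIs of each gene on day 7 (horizontal axis, percent) held by cells of each gate (colours), with the share of UMIs of all genes in the top bar, for the control library (left) and the heme library (right). Ccr7-positive cells held 50.6% of Socs2 UMIs in the control culture, and Marco-positive cells held 54.3% of Csf1r UMIs in the heme-exposed culture.

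**Figure D5:**
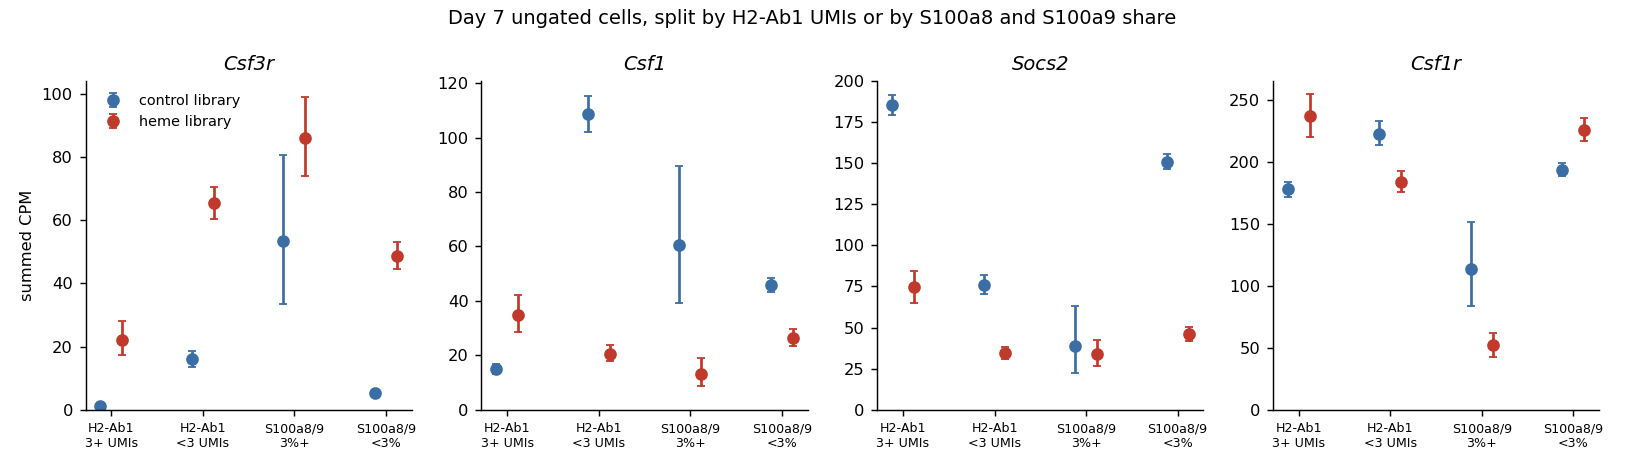
Summed CPM (vertical axis, from 0) of 4 genes in ungated cells of day 7, split by H2-Ab1 UMIs or by the share of S100a8 and S100a9 (horizontal axis), in the control library (blue) and the heme library (red), with 95% Poisson intervals. Csf1 was 109 CPM in control and 20.6 CPM in heme-exposed cells with under 3 H2-Ab1 UMIs, and Csf3r was 5.34 and 48.7 CPM in cells with under 3% S100a8 and S100a9.

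The other genes of the pathway were taken from 6 lists, of which 74 of 86 genes entered the comparison of day 7, and 5 were past 2-fold higher (6.76%) and 13 lower (17.6%) in the heme-exposed culture, where 1019 (8.58%) and 1234 (10.4%) of 11873 genes were. The counts of single lists below stand against the same shares of all genes. On day 3, before exposure, none of 74 was past 2-fold, on day 4 1 was higher and 3 lower (all genes, 383 and 706 of 11398), and on day 5 2 were higher and 3 lower (all genes, 490 and 616 of 11392). The cell types of day 7 moved with these differences, Ccr7-positive cells making up 21.0% of control and 1.98% of heme-exposed cells. The genes named below were therefore also taken within ungated cells and without the limit of 5000 genes, both chosen after the values had been seen. Values under 2-fold in either are given, and every other named gene stayed past 2-fold in both. The part of cell types in the other differences was not tested. Of the kinases and STATs, 0 of 16 were higher and 5 lower on day 7. In each pair of values the control level comes first. Stat4, which relays IL-12, stood at 32.4 and 2.22 CPM, ratio 0.0687 (0.0521 to 0.0891). Jak2, the kinase bound to the beta chain, stood at 186 and 76.9 CPM, ratio 0.413 (0.393 to 0.434), and Stat5a, the factor that it activates, at 26.7 and 14.3 CPM, ratio 0.537 (0.476 to 0.605). Within ungated cells none of these was past 2-fold: the log2 ratios relative to the median gene were -0.10 for Stat4, -0.94 for Jak2 and -0.80 for Stat5a. The difference in Stat4 was thus nearly absent once the gated cells were set aside. Without the limit of 5000 genes all of these genes were still past 2-fold, at -4.62 for Stat4, -1.62 for Jak2 and -1.21 for Stat5a.

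Among listed targets of STAT5, 1 of 13 was higher and 3 were lower. Ccnd2, a cyclin of the G1 phase, stood at 461 and 86.2 CPM, ratio 0.187 (0.179 to 0.195). Il2ra, a chain of the IL-2 receptor, stood at 36.8 and 9.97 CPM, ratio 0.271 (0.237 to 0.309), Pim3, a survival kinase, at 15.2 and 6.33 CPM, ratio 0.416 (0.348 to 0.495), and Id1, an inhibitor of basic helix-loop-helix factors, at 34.9 and 88.8 CPM, ratio 2.55 (2.38 to 2.73). These were past 2-fold in ungated cells too, at log2 ratios of -2.13 for Ccnd2, -2.67 for Il2ra, -1.21 for Pim3 and 1.09 for Id1. Ungated cells of the libraries differed in the dendritic cell, macrophage and neutrophil lists given above, whose part in these values was not tested.

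Of the feedback list other than Cish and Socs2, 2 of 17 genes were higher and 1 lower. Socs3, the feedback gene of IL-6 and G-CSF receptors, stood at 19.9 and 58.5 CPM, ratio 2.94 (2.69 to 3.22), Socs5 at 5.26 and 13.7 CPM, ratio 2.61 (2.18 to 3.12) and Spry1, an inhibitor of the RAS pathway, at 2.71 and 1.04 CPM, ratio 0.382 (0.242 to 0.587). In ungated cells Socs3 was at a log2 ratio of 0.88 and Socs5 at 0.97, both under 2-fold, and without the limit of 5000 genes Socs5 was at 0.94. Among other receptors, 1 of 11 was higher and 2 lower: Il6ra, the IL-6 receptor, stood at 14.4 and 41.2 CPM, ratio 2.86 (2.57 to 3.18), Il1rl1, the IL-33 receptor, at 20.3 and 3.33 CPM, ratio 0.164 (0.130 to 0.204), and Il7r at 80.4 and 44.1 CPM, ratio 0.549 (0.512 to 0.587). Il7r was under 2-fold in ungated cells (-0.17) and without the limit of 5000 genes (-0.24), and Il6ra without that limit (0.94).

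Of the adaptors, 1 of 15 was higher (6.67%) and 2 lower (13.3%), shares near those of all genes. Cblb, a ubiquitin ligase that ends receptor signalling, stood at 22.6 and 7.04 CPM, ratio 0.311 (0.264 to 0.364), Gab1, a docking protein, at 2.60 and 9.63 CPM, ratio 3.70 (2.91 to 4.74), and Dok2, a docking protein of haematopoietic cells, at 160.3 and 88.1 CPM, ratio 0.549 (0.523 to 0.576). Cblb was under 2-fold in ungated cells, at a log2 ratio of -0.73. Gab1 was past 2-fold higher on days 4 and 5 too, with 80 and 110 UMIs in the heme-exposed cultures. Only 2 of 11 other ligand genes entered, and neither was past 2-fold on day 7.

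The genes most like the members over the 10 cultures were found by Pearson correlation of log2(CPM + 1) among 5829 genes with a mean of at least 20 CPM. The correlations are descriptions over cultures that share 2 libraries and a time course. For Csf1r they were Hexa (r = 0.992), Arl4c (r = 0.991) and Pip5k1c (r = 0.990), for Csf3r Vrk3 (r = 0.968), Zdhhc18 (r = 0.960) and Il17ra (r = 0.942), and for Csf1 Trim30a (r = 0.960), Rnf114 (r = 0.951) and Arap2 (r = 0.939). For Csf2rb they were App (r = 0.997), Cdkn1a (r = 0.995) and Pik3r5 (r = 0.995), and for Csf2rb2 Cdkn1a (r = 0.995), Csf2rb (r = 0.993) and Pik3r5 (r = 0.990). The feedback genes had different neighbours, Ralb (r = 0.994), Stx7 (r = 0.994) and Csf2ra (r = 0.993) for Cish and Batf3 (r = 0.992), Cd80 (r = 0.991) and Lsp1 (r = 0.991) for Socs2.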

How the data were processed

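The 2 libraries of lineage-depleted bone marrow cultures, each a pool of 5 hashtagged cultures, were analysed from the deposited 10x Genomics matrices. Per the labels these were single-cell 3′ v3.1 libraries with antibody hashtags; the submitters' processing notes name Cell Ranger 4.0.0 and the genome build GRCm38.p6, while the matrix header names Cell Ranger 5.0.0. The values the authors deposited are counts, whole numbers of UMIs per gene and barcode with no normalization. The authors also deposited hashtag assignments, from Seurat 3.2.3 (HTODemux, positive quantile 0.99) per the methods, which gave the culture day here. The hashtags and harvest days of the labels read day 4, 5 and 7, while exposure times in the design text differ for day 5, so culture days are used.

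Barcodes called Singlet with 500 to 5000 genes and under 15% mitochondrial UMIs were kept, with no limit on ribosomal UMIs. Doublets were treated only through the hashtag calls. UMIs were summed over the cells of a culture or gate and divided by the summed total (CPM). Intervals are exact 95% Poisson intervals for levels, conditional binomial intervals for ratios and exact (Clopper-Pearson) binomial intervals for shares, and cover counting error only. Cells were thinned to 3000 UMIs for shares of cells with a UMI, which left 2681 control and 1904 heme-exposed cells of day 7 that had as many. Gates with under 50 cells gave no level or ratio between libraries (shares of UMIs by gate include them), and cells in more than 1 gate (5 per library) were set aside. With 1 library per group no test was run. All 10 members are named, as are up to 4 called genes of day 7 per pathway list by size of change (1 item is not reported here), and the 3 genes most like each of 7 members. The members and lists were chosen with earlier results of these data known. The call rule was tested on simulated counts with counting error only, which hold no variation between cultures or libraries. Python 3.11.15, numpy 2.4.6, scipy 1.17.1, pandas 2.3.3, matplotlib 3.10.9, edgeR 4.0.16 (TMM factors) and DESeq2 1.42.0 (size factors) were used. Gene positions are from GENCODE M21 (GRCm38). No per-sample column was left aside. Csf1r overlaps Hmgxb3 and Cish overlaps Gm17040 and Gm17041 on the opposite strand. Alternatives were other scalings, filters on cells and genes and other gates.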

Additional observations from a re-analysis of the deposited data

Results flagged for a closer look

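The members Csf1, Kit, Csf2rb and Cish stood on opposite sides of the median gene on different days after exposure, with counting intervals clear of it on both sides, and the difference between days was not tested, because each day had 1 culture per library. The log2 ratio of heme to control relative to the median gene was 0.51 on day 4, -0.62 on day 5 and -1.25 on day 7 for Csf1, and 0.35 on day 4, 0.60 on day 5 and -0.45 on day 7 for Kit. For Csf2rb it was -0.16 on day 4, 0.0455 on day 5 and -0.35 on day 7, and for Cish 0.0832 on day 4, 0.13 on day 5 and -0.16 on day 7. These sides depend on the processing. Without the limit of 5000 genes Csf1 stood at 0.01 on day 5 and Csf2rb at 0.21 on day 4. Divided by the day 3 ratio, Csf1 stood at -0.14 on day 4, Csf2rb at -0.07 on day 5, and Cish at -0.15 on day 4 and -0.11 on day 5. With totals free of ribosomal protein and mitochondrial genes Cish stood at 0.03 on day 7. Kit kept its side on each of these days under every alternative run.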

How the results depend on the processing

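Of 85 repeats of the member counts under another choice, 70 stayed within 1.5 times the count given and 15 did not. Of 757 repeats of single log2 ratios, 529 moved by less than the counting interval, 228 by more, and no called one changed sign. On day 0 the count of 6 became 3 with TMM factors, DESeq2 size factors, a minimum of 10 UMIs or the mean of each cell's CPM, and 1 with every Singlet barcode or with no upper limit on genes. On day 4 it became 1 (Csf3r) without division by the median gene. On day 5 the count of 1 became 0 with every Singlet barcode or no upper limit on genes, and 2 (Csf3r and Csf1) with the mean of each cell's CPM. In Camp-high cells the count of 1 became 2 on day 4 (Csf1r and Csf1) without division by the median gene or with the gate at 0.1% or 1%, and on day 5 it became 2 (Kit and Csf1) without that division and 0 with the gate at 1%. On day 7 the count of 3 stood at 3 with no upper limit on genes, but there Flt3, which then had enough UMIs, replaced Csf1. The log2 ratio of Csf3r on day 7 ranged from 2.12 to 3.25 and Socs2 from -2.32 to -1.99. Divided by its day 3 ratio, Csf3r stood at 0.89 on day 5 and 2.32 on day 7. TMM and DESeq2 factors and totals without ribosomal protein and mitochondrial genes were used in place of division by the median gene, which would cancel them. The cause of these shifts in count was not tested, except that the limit on genes acts by the cells it removes. No paired analysis was possible because each group had 1 library.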
